A study of Mus musculus with 18 samples.

Results

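The epidermal growth factor (EGF) family was followed in mouse small intestinal crypts through 10 genes, the ligand genes Areg, Ereg, Hbegf, Tgfa, Egf, Btc and Epgn and the receptor genes Egfr, Erbb2 and Erbb3. They were found by gene name, each in 1 row of a count table of 55335 genes. The ligands are made as precursors in the cell membrane and are released when proteases cut them. They bind receptors of the ErbB family, which pair up and activate RAS-ERK and PI3K signalling. In the crypt, the epithelial pocket that holds the intestinal stem cells, EGF supplied by Paneth cells and other neighbours is known to keep stem and progenitor cells dividing, and Areg and Ereg are known as ligands that rise during repair.

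Crypts came from mice aged 8 to 12 weeks that all carried Prmt1 alleles flanked by LoxP sites. The KO mice (Prmt1 fl/fl with Vil-CreERT2) also carried a tamoxifen-activated Cre recombinase under the villin promoter, which the study describes as specific to the intestinal epithelium; where the deletion took place was not measured here. WT mice were Prmt1 fl/fl littermates without Cre, and both genotypes were injected with 2 mg of tamoxifen per injection. The study used mice of both sexes and describes KO and control mice as matched in age and sex. Crypts were collected 2 days after the first injection, when 2 injections had been given, or at day 7 or day 14, after 5 injections. Each of the 6 groups (WT and KO at days 2, 7 and 14) had 3 libraries, each from 1 mouse, and all 18 libraries were RNA-Seq of total RNA without ribosomal RNA. The total count per library was 12844642 to 31493484. Expression is given as CPM, counts per 1000000 after TMM normalization, and the FDR is the Benjamini-Hochberg adjusted p of edgeR's quasi-likelihood test over 21349 genes. A gene is said to be called at an FDR under 0.05.

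Prmt1, the deleted gene, had 13.1 to 17.4 CPM in the 9 KO libraries and 20.2 to 30.6 CPM in the 9 WT libraries, so the genotypes did not overlap. The KO mean was 54.1%, 66.4% and 60.9% of WT at days 2, 7 and 14. The 8 epithelial markers, among them Epcam and Vil1, were detected, none of them at 3 counts or fewer in all libraries, and summed to 5105 to 10310 CPM per library. None of them was called between KO and WT on any day by the same test, and 1 had an unadjusted p under 0.05 at day 7 and 1 at day 14. In bulk RNA of this kind, fewer cells of a type and less RNA per cell cannot be told apart.

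Levels between genes were compared as CPM per kilobase of exon, over the 9 WT libraries. Erbb3, a receptor with little kinase activity of its own that signals through its partners, had the highest mean of the 10 genes, 89.5 ± 17.3 CPM per kilobase (SD, n = 9). Erbb2, which has no known ligand and serves as the partner of the other receptors, followed with 35.0 ± 4.49, and Egfr, the receptor for these ligands, with 5.55 ± 0.603. The ranges of these 3 receptors did not overlap over the 9 WT libraries, and Erbb3 and Erbb2 were above all ligands there. Of the ligands, Tgfa had 3.24 ± 0.515 CPM per kilobase, Areg 3.09 ± 2.43, Hbegf 2.52 ± 0.895, Btc 0.940 ± 0.125, Ereg 0.911 ± 0.294 and Egf 0.418 ± 0.0857. Among neighbours in this order of ligands, Hbegf (1.59 to 4.67) and Btc (0.751 to 1.12) did not overlap, and the others did. The mean of Areg hides a difference between days. At WT day 2 its mean was 5.84 CPM per kilobase (3.04 to 7.26), above the means of Tgfa (3.66) and Egfr (4.99) but with overlapping ranges, and at WT days 7 and 14 it had 1.39 and 2.03. Epgn, which encodes epigen, was hardly detected. It had 0 to 5 counts per library, did not pass the filter on low counts and was not tested, which left 9 members.

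**Figure D1:**
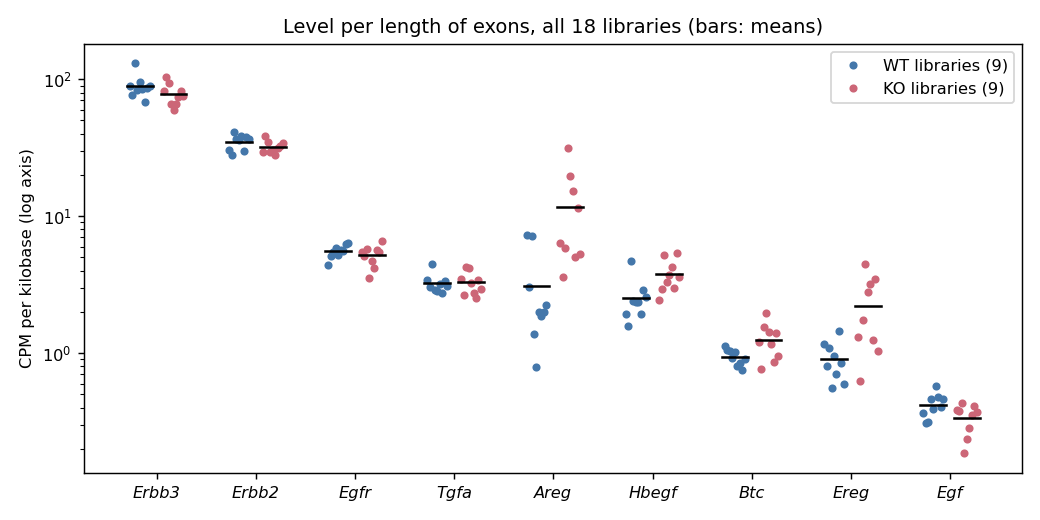
Level of 9 family members as CPM per kilobase of exon (log axis) in each of the 9 WT (blue) and 9 KO (red) libraries, with a bar at the mean. Epgn is left out because it had 0 counts in some libraries. Erbb3 stands above the others in both genotypes, and the KO libraries of Areg spread from 3.62 to 31.6 and reach the range of Erbb2 in KO (28.1 to 38.4).

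At day 7 the KO crypts had more RNA of 3 ligands and less of 1 ligand and 1 receptor. Areg, Ereg and Btc were called higher, Egf and Egfr were called lower, and Hbegf, Tgfa, Erbb2 and Erbb3 were not called. Of all 21349 genes tested, 17.3% were called at day 7, 7.11% higher and 10.2% lower, against 5 of 9 members (3 higher, 2 lower). Without KO day 7 replicate 1, WT day 7 replicate 1 or WT day 7 replicate 3 the count of members was 3, with Areg, Ereg and Egf called. At day 14 Areg was the 1 member called, higher in KO, where 7.92% of all genes were called, 3.23% higher and 4.69% lower, and 0 members were called there without KO replicate 2 or without WT replicate 2. At day 2, 0 of 9 members were called by edgeR's quasi-likelihood test, 0 had an unadjusted p under 0.05 and DESeq2's Wald test also called 0, with 0.0328% of all genes called. The median log2 fold change of the 9 members was 0.13 at day 2, 0.19 at day 7 and -0.03 at day 14, beside -0.01, 0.02 and 0.00 over all genes. The KO and WT libraries did not overlap for 8 members at day 7, 4 with KO above and 4 with KO below WT, and such separation was found for 33.6% of all genes tested. It was found for 1 member at day 2 (8.16% of all genes) and 2 members at day 14 (26.5% of all genes).

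**Figure D2:**
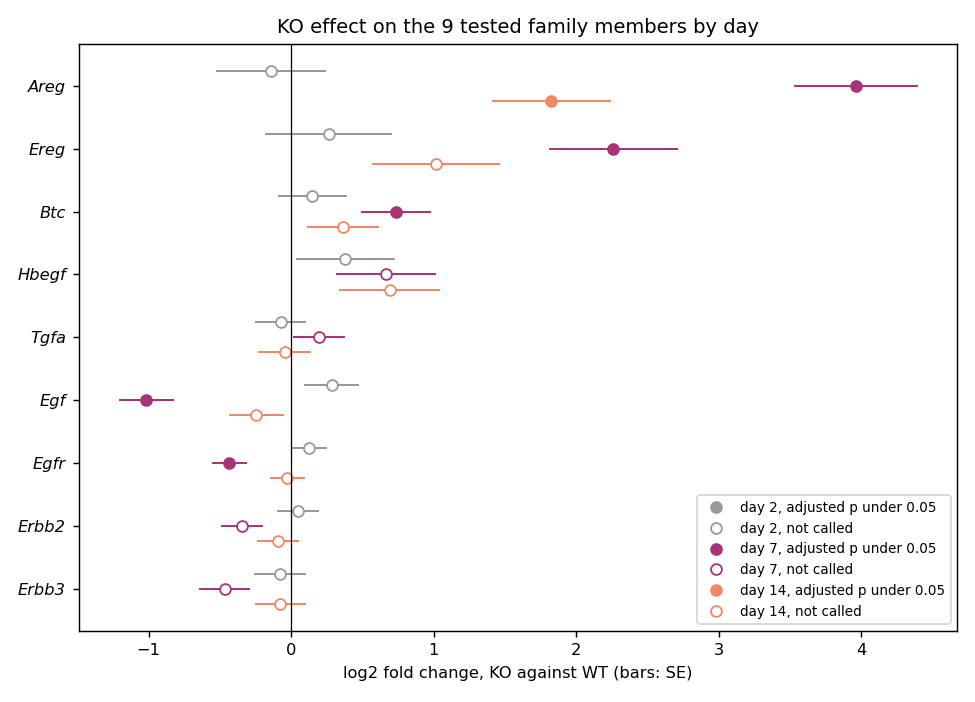
Log2 fold change of KO against WT (x axis, bars show the SE) for the 9 tested members at days 2, 7 and 14, with filled points where the FDR was under 0.05. Areg (3.96) and Ereg (2.26) lie farthest to the right at day 7 and Egf (-1.02) farthest to the left, and the day 2 points lie within 0.38 of 0.

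Areg (ENSMUSG00000029378.5, chr5:91139599-91148432, plus strand, mm10) encodes amphiregulin, a ligand of the EGF receptor. At day 7 the 3 KO libraries had 38.4, 23.9 and 18.7 CPM and the 3 WT libraries 1.69, 0.958 and 2.41 CPM. The groups were far apart, and the lowest KO library rested on 428 counts and the highest WT library on 55. Mean CPM was 27.0 ± 10.2 in KO against 1.69 ± 0.725 in WT (SD, n = 3 each). The fitted difference was 15.6-fold, or 3.96 on the log2 scale (SE 0.43, edgeR FDR = 1.63e-05). With any 1 library left out it stayed between 3.65 and 4.29, and the FDR was at most 0.00026.

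At day 14 the KO libraries had 6.11, 13.9 and 6.48 CPM of Areg and the WT libraries 2.27, 2.41 and 2.73 CPM. All KO libraries lay above all WT libraries, and KO replicate 2 had more than the other 2. The means were 8.82 ± 4.38 and 2.47 ± 0.240 CPM (SD, n = 3 each), and the log2 fold change was 1.83 (SE 0.42, edgeR FDR = 0.0118). Leaving out KO replicate 2 gave 1.36 (FDR = 0.0546), and leaving out WT replicate 2 gave 1.80 (FDR = 0.0539), so the call rested on each of these libraries. At day 2 the groups overlapped, with 7.79, 4.39 and 7.16 CPM in KO and 8.82, 3.69 and 8.77 CPM in WT.

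The WT level of Areg itself differed between days. The WT libraries of day 2 (3.69 to 8.82 CPM) lay above all WT libraries of days 7 and 14 (0.958 to 2.73 CPM). The log2 fold change of WT day 7 against WT day 2 was -2.04 (SE 0.42, FDR = 0.0454), and Areg was the 1 member called of 9 in a comparison with 0.553% of all genes called (0.253% higher, 0.3% lower). The call rested on most of the libraries. Leaving out replicate 1 or 3 of WT day 2 raised the FDR to 0.167 and 0.143, and leaving out replicate 1, 2 or 3 of WT day 7 raised it to 0.120, 0.0584 and 0.19. For WT day 14 against WT day 2 the log2 fold change was -1.52 (SE 0.41, FDR = 0.0632). Here 0 of 9 members were called by edgeR and 3 had an unadjusted p under 0.05, with 1.61% of all genes called, while DESeq2's Wald test called 1 member, Areg (FDR = 0.00495). WT day 14 against WT day 7 gave 0 of 9 members by edgeR's quasi-likelihood test, 0 at an unadjusted p under 0.05 and 0 by DESeq2, with 0.0796% of all genes called.

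Markers of other cell types moved between the WT groups as well. All 8 enterocyte markers had negative log2 fold changes at WT day 7 against day 2 (median -1.18), and their sums were 7477 to 10510 CPM at day 7 and 10900 to 24800 CPM at day 2, without overlap. None of the 8 was called by edgeR there, 6 had an unadjusted p under 0.05, and 3 were called lower at WT day 14 against day 2. Of 11 immune cell markers 0 were called at WT day 7 against day 2 and 5 had an unadjusted p under 0.05 (median -0.78, sums of 73.9 to 186.7 CPM at day 7 and 180.4 to 239.3 CPM at day 2). At WT day 14 against day 2 edgeR called 0 and 7 had an unadjusted p under 0.05 (median -0.74). Their sums at day 14 were 82.3 to 136.7 CPM, without overlap with day 2. There 8 of 9 enteroendocrine cell markers were also below 0, with 0 called and 5 at an unadjusted p under 0.05. All 8 epithelial markers were below 0 in both comparisons, with 0 called and 2 in each at an unadjusted p under 0.05. The part of these cells in the WT level of Areg was not tested.

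In the order of the 6 groups, KO day 7 stood above all others for Areg without overlap. KO day 14, WT day 2 and KO day 2 followed and overlapped each other. WT day 14 and WT day 7 formed an overlapping pair below them, without overlap with these groups. The KO effect of Areg was larger at day 7 than at day 2 by 4.10 on the log2 scale (SE 0.57, FDR = 0.000743), where 4.37% of all genes passed the test of this difference (1.33% higher, 3.04% lower). The level at WT day 2 is part of that difference, since WT fell by 2.04 between days 2 and 7. The day 14 effect was 2.14 below the day 7 effect (SE 0.59, unadjusted p = 0.00219, FDR = 0.999). In this test of days 14 and 7, edgeR called 0 of 9 members and 0% of all genes, 3 members had an unadjusted p under 0.05 and DESeq2 called 0 members.

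Ereg (ENSMUSG00000029377.5, chr5:91074622-91093646, plus strand, mm10) encodes epiregulin, a ligand that binds the EGF receptor and ErbB4. At day 7 the KO libraries had 18.5, 11.6 and 13.1 CPM and the WT libraries 2.30, 3.96 and 2.89 CPM, without overlap. The means were 14.4 ± 3.63 and 3.05 ± 0.841 CPM (SD, n = 3 each). KO exceeded WT 4.78-fold, or by 2.26 on the log2 scale (SE 0.45, edgeR FDR = 0.00264), and the FDR was at most 0.0191 with any 1 library left out. At day 14 KO replicate 2 had 14.4 CPM, but KO replicates 1 and 3 (5.17 and 4.25 CPM) lay within the range of the WT libraries (6.04, 3.51 and 2.46 CPM). The day 14 log2 fold change was 1.02 (SE 0.45, FDR = 0.198), and 0.29 without KO day 14 replicate 2. At day 2 the groups overlapped (2.57 to 7.16 CPM in KO, 3.34 to 4.84 CPM in WT). The test of the day 7 effect against the day 2 effect gave 2.00 (SE 0.63, FDR = 0.0879), and DESeq2's Wald test gave 1.99 with an FDR of 0.0189. Ereg shares 141 exon bases (3.42% of its exons) with Gm19610 on the opposite strand, and since fragments were counted without regard to strand, reads there count for both genes.

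Btc (ENSMUSG00000082361.6, chr5:91357261-91402994, minus strand, mm10) encodes betacellulin, a further ligand of the EGF receptor and ErbB4. At day 7 it had 8.85, 6.46 and 5.28 CPM in KO and 4.14, 4.60 and 3.64 CPM in WT. The lowest KO library was above the highest WT library. The log2 fold change was 0.74 (SE 0.24, FDR = 0.0426). This call was close to the threshold and was lost with 5 of the 6 libraries left out in turn. Leaving out KO replicate 1 or 2 raised the FDR to 0.219 and 0.0719, and leaving out WT replicate 1, 2 or 3 raised it to 0.105, 0.0643 and 0.142. It was also 0.0573 in a model of the day 7 libraries alone. At day 14 Btc had 3.90, 6.37 and 4.32 CPM in KO and 3.85, 3.40 and 4.08 CPM in WT, with overlap (log2 fold change 0.37, SE 0.25, FDR = 0.446).

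Areg, Ereg and Btc lie in 1 stretch of chromosome 5, together with Epgn. The stretch from the start of Epgn to the end of Btc (chr5:91027464-91402994) spans 375531 bases and holds 7 genes of the table, 3 of them not members. Epgn is 39406 bases from Ereg, Ereg 45952 bases from Areg and Areg 208828 bases from Btc. The promoters of Areg and Btc are printed here because these genes of the stretch were both called higher at day 7. They run from 250 bases before to 50 bases after the start site and were taken from RefSeq (GRCm38.p6, the mm10 genome). RefSeq promoters were matched for 7 of the 10 members, and those of Ereg, Hbegf and Erbb3 were not used here. Capitals mark a match to 1 of 4 motifs that were searched on both strands, TGANTCA (AP-1), TGACGTCA (CRE), CCGGAA (ETS core) and CTTTGAT (TCF/LEF).

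Areg promoter, chr5:91139349-91139648, plus strand: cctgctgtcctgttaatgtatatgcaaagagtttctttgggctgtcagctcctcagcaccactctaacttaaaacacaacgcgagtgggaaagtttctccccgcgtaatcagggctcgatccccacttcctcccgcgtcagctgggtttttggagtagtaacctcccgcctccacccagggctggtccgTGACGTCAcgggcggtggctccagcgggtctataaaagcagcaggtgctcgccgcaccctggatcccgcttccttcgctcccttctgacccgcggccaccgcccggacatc

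Btc promoter, chr5:91402945-91403244, minus strand: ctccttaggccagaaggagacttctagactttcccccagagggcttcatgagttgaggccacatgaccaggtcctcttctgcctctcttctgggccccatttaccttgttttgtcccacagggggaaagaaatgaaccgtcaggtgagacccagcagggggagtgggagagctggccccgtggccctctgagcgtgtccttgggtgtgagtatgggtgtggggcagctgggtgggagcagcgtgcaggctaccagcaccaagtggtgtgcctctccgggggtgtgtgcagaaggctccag

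The Areg promoter held the CRE letters once, starting 61 bases before the start site. Among 32851 RefSeq promoters, 1.79% hold TGACGTCA, 7.81% TGANTCA, 14.9% CCGGAA and 3.73% CTTTGAT. The Btc promoter held none of the 4 motifs in this window. Of the other promoters matched, 1 of 2 Egf promoters held the ETS core, 45 bases before its own start site. That promoter (chr3:129725037-129725336) lies inside the Egf gene, and the promoter at the annotated start of Egf held none of the 4 motifs. The Egfr promoter held the ETS core on the opposite strand, 119 bases before, while those of Tgfa, Epgn and Erbb2 held none.

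Hbegf (ENSMUSG00000024486.6, chromosome 18) encodes the heparin-binding ligand of the family. At day 7 its KO libraries had 16.1, 17.9 and 20.7 CPM and its WT libraries 11.6, 11.4 and 11.4 CPM. At day 14 they had 14.5, 26.1 and 17.3 CPM in KO and 9.29, 13.9 and 12.4 CPM in WT. On both days every KO library lay above every WT library (exact two-sided permutation test, p = 0.1 for each day, the smallest p that 3 against 3 allow). By edgeR the day 7 log2 fold change was 0.66 (SE 0.35, FDR = 0.221) and the day 14 one 0.69 (SE 0.35, FDR = 0.274), so neither was called. In a model of the day 7 libraries alone, where the WT spread was 0.0871 CPM, the FDR at day 7 was 0.0144. At day 2 replicate 3 of both genotypes had more Hbegf (25.2 CPM in KO, 22.6 CPM in WT) than the other libraries of that day (7.70 to 14.3 CPM).

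Tgfa (ENSMUSG00000029999.14, chr6:86195223-86275719, plus strand, mm10) encodes transforming growth factor alpha. Its groups overlapped on all 3 days, with a range over all 18 libraries of 16.6 to 28.9 CPM. The log2 fold change was -0.08 at day 2, 0.19 at day 7 (SE 0.18, FDR = 0.526) and -0.05 at day 14 (SE 0.18, FDR = 0.924).

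Egf (ENSMUSG00000028017.7, chr3:129677565-129755316, minus strand, mm10), which encodes epidermal growth factor itself, was the 1 ligand called lower. At day 7 the KO libraries had 2.09, 2.67 and 3.23 CPM and the WT libraries 5.25, 4.41 and 6.48 CPM. Each KO library had less than any WT library of that day, and KO day 7 was below the other 5 groups without overlap. The means were 2.66 ± 0.571 and 5.38 ± 1.04 CPM (SD, n = 3 each), 49.5% of WT by the ratio of means, and the log2 fold change was -1.02 (SE 0.19, edgeR FDR = 0.00122). With any 1 library left out it was -1.15 to -0.85, with an FDR of at most 0.0123. At day 14 the KO libraries had 4.01, 4.61 and 4.18 CPM and the WT libraries 5.36, 4.58 and 5.24 CPM, with overlap (log2 fold change -0.24, SE 0.19, FDR = 0.517). At day 2 the order was the other way round, with 4.33, 4.28 and 4.92 CPM in KO above 4.10, 3.47 and 3.57 CPM in WT (log2 fold change 0.28, SE 0.19, FDR = 1.00). The day 7 effect was 1.30 below the day 2 effect on the log2 scale (SE 0.27, FDR = 0.00967). In this test of the difference Egf and Areg were the 2 members called of 9, beside 4.37% of all genes, while DESeq2's Wald test called 4 members. The level of Egf at WT day 2 is part of that difference. The WT libraries of day 2 (3.47 to 4.10 CPM) lay below those of day 7 (4.41 to 6.48 CPM). WT day 7 against WT day 2 gave a log2 fold change of 0.54 (SE 0.19, edgeR FDR = 0.113) and was not called. All of these values rest on 47 to 148 counts per library, and 607 and 500 exon bases of Egf (5.38% and 4.43% of its exons) are shared with Gm42697 and 6330410L21Rik on the opposite strand.

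Paneth cells are known as a source of EGF in the crypt, and their markers moved with Egf at day 7. The 7 markers, among them Lyz1, Mmp7 and Defa24, were all called lower in KO at day 7 (median log2 fold change -2.04), and summed to 1573 to 4599 CPM in KO and 10260 to 16530 CPM in WT. At day 14 the sums were 6011 to 8237 CPM in KO and 10190 to 22540 CPM in WT. There 1 marker was called lower, and all 7 log2 fold changes were below 0 (median -1.19, 6 with an unadjusted p under 0.05), while that of Egf was -0.24. At day 2 they overlapped (9839 to 19430 CPM in KO, 8048 to 19190 CPM in WT). No marker of the list was at 3 counts or fewer in all libraries. Stem cell markers moved in the same direction, with 5 of 7 called lower at day 7 and sums of 470.8 to 1106 CPM in KO and 1731 to 2342 CPM in WT. All 9 enteroendocrine cell markers were called higher at day 7, with sums of 649.9 to 805.6 CPM in KO and 289.3 to 312.5 CPM in WT. At day 14 all 9 were again called higher (767.9 to 924.4 CPM in KO, 247.9 to 329.1 CPM in WT). Stem cell markers at day 14 summed to 1604 to 1891 CPM in KO and 2154 to 2356 CPM in WT, without overlap and with 1 of 7 called lower. Immune cell markers at day 14 summed to 144.8 to 212.3 CPM in KO and 82.3 to 136.7 CPM in WT, also without overlap, where edgeR called 0 of 11 and 1 had an unadjusted p under 0.05. Goblet cell markers at day 14 summed to 10610 to 12550 CPM in KO and 12780 to 13100 CPM in WT, without overlap and with 1 of 7 called lower, although 4 of 7 log2 fold changes were above 0 (median 0.13). Of enterocyte markers 1 of 8 was called higher at day 14, and all 8 log2 fold changes were above 0 (median 1.03, 6 with an unadjusted p under 0.05). KO day 14 replicate 2, the library of its group with the most Areg, also had its highest sum of enterocyte markers (19220 CPM, 9895 and 14230 CPM in the others). The same held for immune cell markers (212.3 CPM, 147.8 and 144.8 CPM in the others). Its sums of epithelial, Paneth, enteroendocrine, goblet and tuft cell markers were the highest of the group as well. Within the KO libraries of day 7, replicate 1 had the lowest sum of both Paneth cell markers (1573 CPM, 4244 and 4599 CPM in the others) and stem cell markers (470.8 CPM, 1055 and 1106 CPM in the others), and it was the library with the most Areg, Ereg and Btc and the least Egf and Egfr. This replicate also had the lowest sums of tuft (29.1 CPM) and immune cell markers (107.5 CPM). Its sums of epithelial (8314 CPM), enterocyte (20240 CPM), enteroendocrine (805.6 CPM) and goblet cell markers (13790 CPM) were the highest of the group. Of enterocyte markers 2 of 8 were called higher at day 7, and all 8 log2 fold changes were above 0 (median 0.81), with sums of 12560 to 20240 CPM in KO and 7477 to 10510 CPM in WT, without overlap. Of tuft cell markers 1 of 7 was called lower, and all 7 log2 fold changes were below 0, with sums of 29.1 to 68.5 CPM in KO and 74.9 to 86.1 CPM in WT, also without overlap. Of goblet cell markers 2 of 7 were called lower, with 5 of 7 log2 fold changes above 0 (median 0.17). The part of these cell types in the levels of Egf, Areg, Ereg, Btc and Egfr, and in those of the pathway genes called at days 7 and 14, was not tested. Of 11 tested immune cell markers 0 were called at day 7 by edgeR's quasi-likelihood test (0 at an unadjusted p under 0.05), and of 11 tested stromal and vessel cell markers 1 was called higher. Their summed levels overlapped between KO and WT at day 7, with 107.5 to 170.1 and 73.9 to 186.7 CPM for immune cells and 31.6 to 85.1 and 25.4 to 61.3 CPM for stromal and vessel cells.

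**Figure D3:**
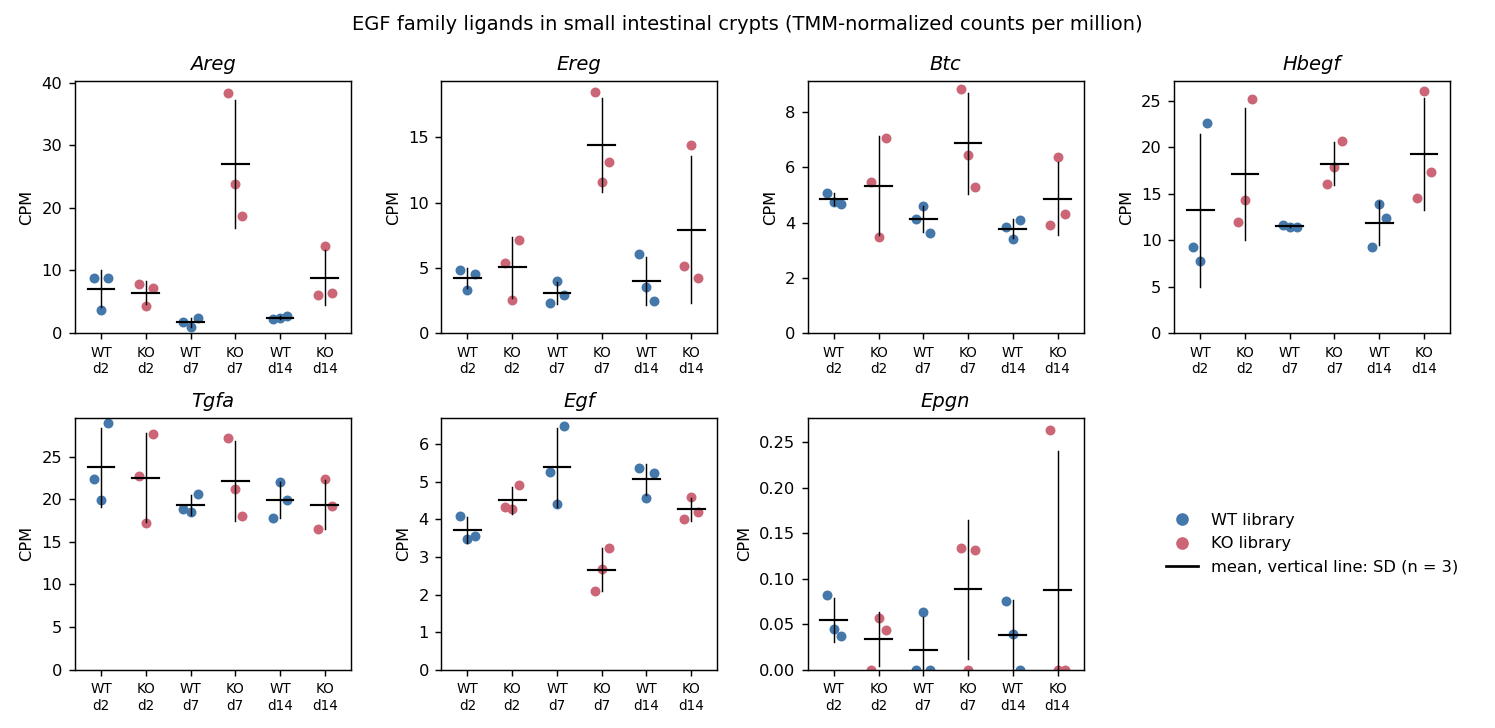
CPM of the 7 ligand genes in each library (points) by genotype and day, with a horizontal bar at the mean and a vertical line for the SD (n = 3 per group). The axes start at 0 and differ between genes. Areg, Ereg and Btc peak in KO day 7, and Egf is lowest there (2.09 to 3.23 CPM). KO day 14 replicate 2 is the highest library of its group for every tested ligand, Areg, Ereg, Hbegf, Tgfa, Egf and Btc.

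Among the receptors, Egfr (ENSMUSG00000020122.16, chr11:16752203-16918158, plus strand, mm10) was the 1 called. At day 7 the KO libraries had 39.9, 53.3 and 47.5 CPM and the WT libraries 66.9, 58.9 and 64.2 CPM, without overlap. The means were 46.9 ± 6.71 and 63.3 ± 4.05 CPM (SD, n = 3 each), 74.1% of WT by the ratio of means, and the fitted log2 fold change was -0.43 (SE 0.12, edgeR FDR = 0.0201). The FDR rose to 0.157 when KO replicate 1 was left out, to 0.0826 and 0.0595 when WT replicate 1 or 3 was left out, and to 0.0511 in a model of the day 7 libraries alone. At day 14 the libraries overlapped (62.4 to 74.9 CPM in KO, 62.7 to 72.0 CPM in WT), and the log2 fold change was -0.03 (SE 0.12, FDR = 0.932).

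Erbb2 and Erbb3 lay lower in KO at day 7 without passing the test. Erbb2 (ENSMUSG00000062312.5, chr11:98412470-98437716, plus strand, mm10) had 152.7, 158.1 and 146.4 CPM in KO and 191.8, 189.0 and 199.5 CPM in WT, and the groups did not overlap. Its log2 fold change was -0.34 (SE 0.15, FDR = 0.120). Erbb3 (ENSMUSG00000018166.8, chr10:128567523-128589652, minus strand, mm10) had 395.6, 360.6 and 395.0 CPM in KO and 503.0, 575.6 and 512.5 CPM in WT, again without overlap. Its log2 fold change was -0.47 (SE 0.18, FDR = 0.0843), and the FDR was 0.0347 with DESeq2's Wald test. At day 14 KO and WT overlapped for both genes, with log2 fold changes of -0.09 and -0.08, and at day 2 the fold changes were 0.05 and -0.08. The mean of KO day 7 was the lowest of the 6 groups for each of the 3 receptors.

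**Figure D4:**
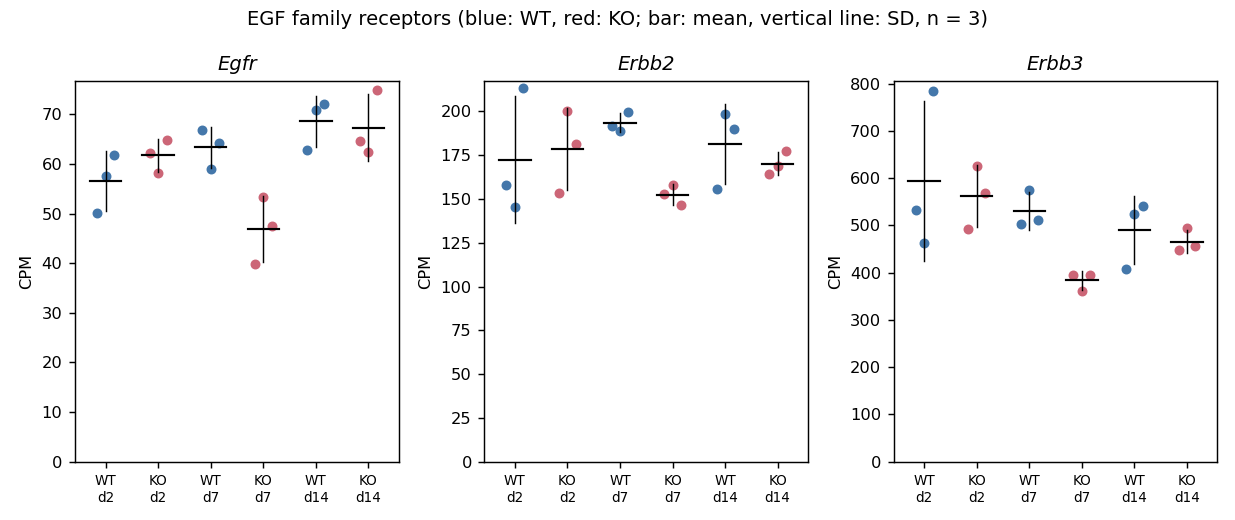
CPM of the 3 receptor genes in each library by genotype and day, with a horizontal bar at the mean and a vertical line for the SD (n = 3 per group). The 3 KO libraries of day 7 lie below the 3 WT libraries of that day for Egfr, Erbb2 and Erbb3, and the genotypes overlap at days 2 and 14.

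The levels of members were compared across the 18 libraries as a description, since the libraries share their groups and their depth. On the log2 CPM scale the Pearson correlation was 0.82 for Areg and Ereg, 0.81 for Ereg and Btc and 0.75 for Areg and Btc, and -0.76 for Areg and Egf. Egf and Egfr had a correlation of 0.76 (n = 18). The genes with the pattern most like that of Areg were Sgk2, a serine/threonine kinase (r = 0.94), Ptpn12, a protein tyrosine phosphatase (r = 0.93), and Gm19610, the gene on the opposite strand that overlaps Ereg (r = 0.92). The most like Ereg were Xpo4, a nuclear export receptor (r = 0.90), Dusp3, a dual specificity phosphatase (r = 0.87), and Tfcp2l1, a transcription factor (r = 0.87). Among the genes most like Egf were Adcy8, an adenylyl cyclase, and Slc27a3, of the fatty acid transport protein family (r = 0.91 each).

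Of Erbb4, Nrg1, Nrg2, Nrg3 and Nrg4, 2 genes passed the filter on low counts. Nrg1, which encodes the neuregulin 1 ligands of Erbb3 and Erbb4, had 25, 19 and 11 counts in the KO libraries of day 14 and 6, 3 and 4 in the WT libraries. It was called higher at day 14 (log2 fold change 2.25, SE 0.43, FDR = 0.00246), and its log2 fold change at day 7 was 1.07 (FDR = 0.0851). Nrg4, a ligand of Erbb4 named after its values were seen, was far more abundant, with group means of 11.8 to 16.4 CPM. Its log2 fold change was -0.16 at day 7 (SE 0.17, FDR = 0.570) and 0.00 at day 14 (SE 0.17, FDR = 0.999).

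Of the proteins that release, carry or inhibit the ligands and their sheddases, 9 of 10 genes were tested. At day 7, 1 was called higher and 2 lower (median log2 fold change 0.18 over the 9 tested, 0.02 over all genes), and at day 14, 2 were called higher. Over all genes 7.11% were called higher and 10.2% lower at day 7, and 3.23% higher at day 14. Rhbdf2, an inactive rhomboid that the ligand sheddase ADAM17 needs to mature, had 41.6 to 46.1 CPM in KO and 25.5 to 29.1 CPM in WT at day 7. It was called on both days, with log2 fold changes of 0.68 at day 7 (SE 0.12, FDR = 0.000745) and 0.60 at day 14 (SE 0.12, FDR = 0.00475). Its relative Rhbdf1 was called at day 14 (0.64, SE 0.17, FDR = 0.02), and its FDR rose to 0.0690 when KO replicate 3 was left out and to 0.104 when WT replicate 2 was. Nkd2, a carrier of TGFA-containing vesicles that also acts in WNT signalling, was called lower at day 7 (-1.53, SE 0.29, FDR = 0.00143). Timp3, an inhibitor of ADAM17, was called lower at day 7 (-0.93, SE 0.23, FDR = 0.00749), with an FDR of 0.0605 without KO day 7 replicate 1. Adam17 itself, named after its values were seen, had a log2 fold change of -0.01 at day 7 (SE 0.10) and was not called.

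Receptor inhibitors and ubiquitin ligases were mostly not called. At day 7, 1 of 10 was higher (Socs4, an inhibitor of EGF receptor signalling, log2 fold change 0.65, SE 0.15, FDR = 0.00513) and 1 lower (Cblb, a ubiquitin ligase, -0.63, SE 0.15, FDR = 0.00825, and 0.0519 without KO day 7 replicate 2), with a median of -0.01. These counts stand beside 7.11% of all genes called higher and 10.2% called lower. At day 14, 0 were called by edgeR's quasi-likelihood test, 0 had an unadjusted p under 0.05 and DESeq2's Wald test called 0. Among 16 adaptors and RAS-ERK kinases, 2 were called lower at day 7, beside 10.2% of all genes, and 14 were not called (median 0.08). Gab1, an adaptor downstream of EGF receptors, had 13.2, 13.7 and 15.3 CPM in KO and 29.5, 30.9 and 25.4 CPM in WT, and the fitted log2 fold change was -1.02 (SE 0.16, FDR = 0.000238). Map2k2, which encodes the ERK kinase MEK2, had a log2 fold change of -0.56 (SE 0.17, FDR = 0.0281), and its FDR was 0.0805 to 0.103 without KO day 7 replicate 1, KO day 7 replicate 3, WT day 7 replicate 2 or WT day 7 replicate 3. At day 14, 0 of the 16 were called by edgeR, 2 had an unadjusted p under 0.05 and DESeq2 called 0.

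ERK feedback and output genes are switched on when ERK is active. Of 14 such genes 5 were called higher and 0 lower at day 7, beside 7.11% of all genes called higher. On that day 12 of the 14 log2 fold changes were above 0, with a median of 0.54 over the list and 0.02 over all genes. At day 2, 11 of the 14 were above 0 (median 0.09) and edgeR called 0. In the test of the day 7 effect against the day 2 effect, edgeR called 1 of the 14 higher and 0 lower, beside 1.33% of all genes higher. The list median of this difference was 0.19, with 0.00 over all genes. Spry4, an inhibitor of receptor signalling, had 3.20, 2.98 and 1.57 CPM in KO and 0.684, 1.15 and 0.526 CPM in WT (12 to 85 counts), without overlap. Its log2 fold change was 1.76 (SE 0.36, FDR = 0.00226). The KO libraries of Spry4 also lay above the WT libraries at day 2 (means of 0.79 and 0.40 CPM). The same held at day 14 (1.38 and 0.79 CPM), and the gene was not called on either of these days. Groups without overlap were found for 8.16% of all genes at day 2 and 26.5% at day 14. Dusp6, an ERK phosphatase, had 48.0, 33.9 and 39.2 CPM in KO and 19.5, 16.6 and 20.5 CPM in WT. Its log2 fold change was 1.09 (SE 0.33, FDR = 0.0298). These KO values lay within the day 2 ranges of KO (25.7 to 54.1 CPM) and WT (23.1 to 55.2 CPM). The WT values of day 7 lay below both day 2 ranges. The log2 fold change was 1.02 for Epha2 (SE 0.28, FDR = 0.0165), a receptor of ephrins, and 0.95 for the phosphatase gene Dusp4 (SE 0.16, FDR = 0.000378). The remaining gene called was Etv5, an ETS transcription factor, which was named after its values were seen (0.83, SE 0.26, FDR = 0.0315).

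Without 1 library the count of this list fell to 2 when KO day 7 replicate 1, WT day 7 replicate 1 or WT day 7 replicate 2 was left out. The calls lost were those of Dusp6, Epha2 and Etv5, with FDR from 0.0566 to 0.130 in those fits. Etv5 was also lost without KO day 7 replicate 2 (FDR = 0.0882) and Dusp6 without WT day 7 replicate 3 (FDR = 0.0642). With no filter on low counts, which raises the number of genes tested to 39046, Dusp6 (FDR = 0.0893) and Epha2 (FDR = 0.0613) were not called at day 7. At day 14, 2 genes of the list were called higher, beside 3.23% of all genes, Dusp4 (0.97, SE 0.16, FDR = 0.000809) and Epha2 (1.02, SE 0.28, FDR = 0.0296), and the list median was 0.12 with 0.00 over all genes. Epha2 was not called at day 14 without KO day 14 replicate 2 or 3 or WT day 14 replicate 1 or 3, with FDR from 0.0604 to 0.0987, nor with no filter (FDR = 0.101), which left 1 gene called. At day 2 the 5 pathway lists gave 0 calls by edgeR's quasi-likelihood test and 0 by DESeq2's Wald test, and 3 of their 51 tested genes had an unadjusted p under 0.05.

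**Figure D5:**
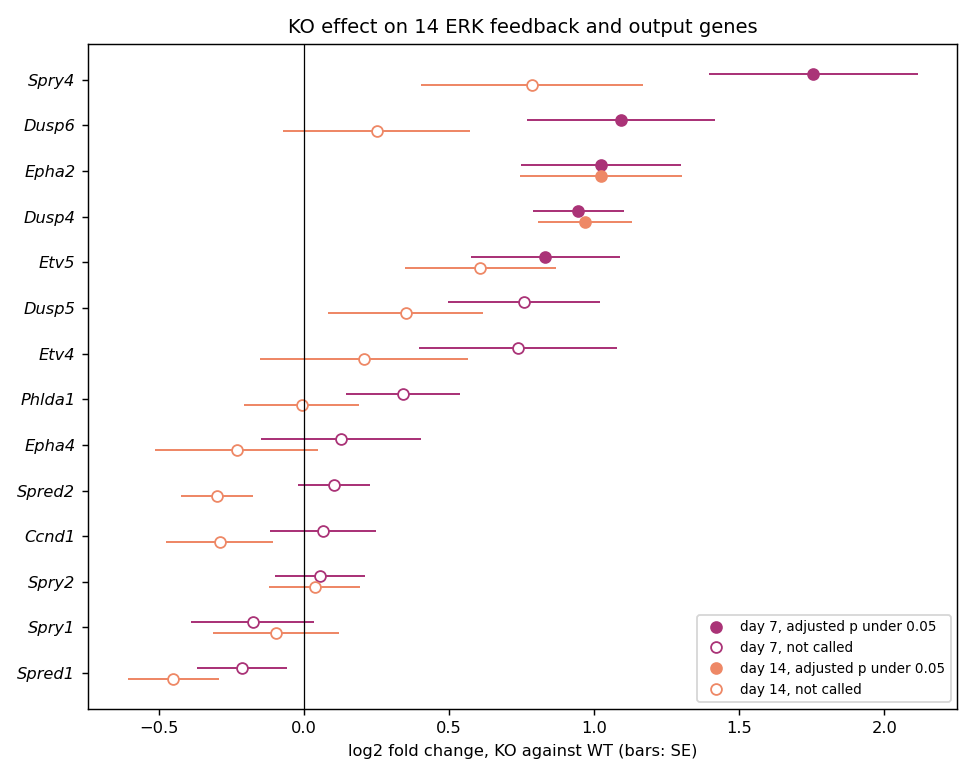
Log2 fold change of KO against WT (x axis, bars show the SE) for 14 ERK feedback and output genes at days 7 and 14, ordered by the day 7 value, with filled points where the FDR was under 0.05. Spry4 is highest at day 7 (1.76), and Epha2 and Dusp4 are near 1 on the log2 scale on both days.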

How the data were processed

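Crypt RNA of 18 mice was sequenced after removal of ribosomal RNA, as 100-base paired reads. Per the study's methods and the header of the deposited table, the authors aligned reads with STAR 2.7.3 to mm10 and made raw counts per gene with featureCounts 1.6.4. The header names GENCODE release 23, the methods release 26. Counting took no account of strand, a fragment over several genes counted for each of them, and reads with several alignments were not counted, so values of overlapping and antisense genes are uncertain. The submitters' processing notes also name HTSeq, with no role given there. The methods name HTSeq together with featureCounts for the quantification of genes.

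From these deposited counts, 20 genes that the study found to differ between the sexes were left out, as the study did, and 21349 of the remaining genes passed edgeR's filterByExpr by group. One model of all 6 groups, with TMM normalization and edgeR 4.0.16 (quasi-likelihood, robust, R 4.3.3), gave log2 fold changes, their standard errors (the absolute log2 fold change divided by the square root of F) and p-values, adjusted by Benjamini-Hochberg over all genes tested in each of 8 comparisons (FDR). A gene was called at an adjusted p under 0.05. CPM are counts per 1000000 of the TMM-scaled library size, and CPM per kilobase divides by the exon bases given in the table. Correlations used log2 CPM with a prior count of 2. The study used DESeq2, which was run as an alternative (DESeq2 1.42.0). Further alternatives were DESeq2's size factors, no filter, a mean count of at least 50, the 20 sex-related genes kept, the 20 most abundant genes left out, only the groups compared, a replicate block and leaving out single libraries. The alternatives for genes and lists of the pathway were added after seeing the data. Total counts of 12844642 to 31493484 per library set the precision, and a count of 3 or fewer was taken as the floor. Animals were separate, so the p-values cover the spread between mice. The sex of the mice was not modelled.

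The members and lists were chosen with earlier results of these data known. Genes were named by rule: every member, up to 4 genes per pathway list, and the 3 genes most correlated with each of Areg, Ereg and Egf. Those of a pathway list had the largest changes among its genes called at day 7 or day 14. One item that this rule gave is not reported here. The procedure was tested on simulated data. Promoter sequences came from RefSeq (GRCm38.p6). Figures were drawn with Python 3.11.15 and matplotlib 3.10.9.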

Additional observations from a re-analysis of the deposited data

Results flagged for a closer look

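The effect of KO on 2 members differed between day 7 and day 2 by a test of the difference itself (edgeR, 3 libraries per group), in which 4.37% of all genes were called, 1.33% higher and 3.04% lower. For Areg the difference was 4.10 on the log2 scale (SE 0.57, edgeR FDR = 0.000743), with 3 of 3 KO libraries above all WT libraries at day 7 and overlapping groups at day 2. For Egf it was -1.30 (SE 0.27, edgeR FDR = 0.00967), with 3 of 3 KO libraries below all WT libraries at day 7 and above them at day 2.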

How the results depend on the processing

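Over all members and comparisons, 563 of 576 tests kept direction and side of the threshold under settings other than leaving out a library, and 490 of 540 did with 1 library left out. Most of these tests were not called in the main fit, and those that stayed so count as kept. A call was lost in 4 of the tests under other settings and in 15 of those with 1 library left out. Areg, Ereg and Egf at day 7 were called under every setting run. Calls of Btc, Egfr and, at day 14, Areg rested on single libraries, as given above, and the cause was not tested. A filter on a mean count of 50 removes Nrg1. Low counts limit the precision of Egf, Btc, Nkd2, Nrg1, Spry4 and, in WT, of Areg and Ereg.

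With DESeq2's Wald test, which was run on 39046 genes with its own independent filtering in place of the filter on low counts, so that test and filter changed together, the count of genes called was 12 for KO against WT at day 2, 1406 for the difference of days 7 and 2 (4 members), 1544 for WT day 7 against day 2, 1391 for WT day 14 against day 2 (1 member) and 49 for WT day 14 against day 7. With no filter these counts were 16 at day 2, 2 for the difference of days 14 and 7, 1012, 1011 and 59. With a mean count of 50 they were 2 at day 2, 494 for WT day 7 and 770 for WT day 14 against day 2 (1 member). Without the 20 most abundant genes, 288 were called for WT day 7 against day 2. With only the groups compared the counts were 3 at day 2, 576, 28 and 4 for the WT comparisons in the order above.

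Same-numbered libraries correlated at -0.159 to 0.381 and 6 of 9 pairs were over 0.1, and no source says that a number marks a litter, so the numbers were not taken to pair them. As a hint from the data, 6 of 9 KO and 7 of 9 WT libraries correlated best with their own number. The 20 sex-related genes took 0.039% to 0.0479% of counts in 10 libraries and 0.131% to 0.327% in 8, and in 9 of 9 pairs both libraries fell in the same class, a split chosen after seeing the data. The class of 8 held 1 library of each group at days 2 and 14 and 2 of each group at day 7. The replicate block gave each number an effect shared by all days, although the mice differed between days. It is therefore no test of pairs within a day, and such a test was not run. With this block the counts were 3 at day 2, 19 for WT day 7 against day 2 (0 members), 173 for WT day 14 against day 2 and 5 for WT day 14 against day 7. The calls of Btc at day 7 (FDR 0.0602) and of Areg in WT day 7 against day 2 (FDR 0.0605) were lost, and no other member's call.

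With 1 library left out, genes called ran from 3 to 4 at day 2, 2051 to 4117 at day 7, 1041 to 1334 at day 14, 431 to 1295 and 0 to 2 for the differences of days 7 and 2 and of days 14 and 7, 0 to 535 and 22 to 712 for WT days 7 and 14 against day 2, and 0 to 10 for WT day 14 against day 7. Members called ran from 3 to 5 at day 7 and from 0 to 1 at day 14 and for WT days 7 and 14 against day 2.

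Small log2 fold changes, none of them called, changed sign with 1 library left out. For KO against WT at day 2 the ranges were -0.45 to 0.071 for Areg, -0.10 to 0.58 for Ereg, -0.013 to 1.01 for Hbegf, -0.25 to 0.089 for Tgfa, -0.12 to 0.38 for Btc, -0.059 to 0.22 for Erbb2 and -0.23 to 0.17 for Erbb3. At day 14 they were -0.15 to 0.065 for Tgfa, -0.10 to 0.04 for Egfr, -0.19 to 0.01 for Erbb3 and -0.24 to 0.047 for Cblb. For Hbegf the differences of effects ran from -0.33 to 0.68 (days 7 and 2) and -0.26 to 0.19 (days 14 and 7). For WT day 7 against day 2 the ranges were -0.48 to 0.42 for Hbegf and -0.32 to 0.076 for Erbb3. For WT day 14 against day 2 they were -0.42 to 0.49 for Hbegf, -0.47 to 0.16 for Ereg and -0.036 to 0.26 for Erbb2. For WT day 14 against day 7 they were -0.21 to 0.059 for Egf, -0.16 to 0.023 for Erbb2, -0.17 to 0.021 for Erbb3, -0.077 to 0.21 for Hbegf and -0.032 to 0.14 for Tgfa.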
